A study of Mus musculus with 9 samples.

Results

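The genes of the interferon response and of antigen presentation were examined in kidney of wild-type and Bmal1 knockout mice, Bmal1 being a core transcription factor of the circadian clock. The members were chosen by function, as 38 named symbols among the 23282 listed for each library. They comprise 27 interferon-induced genes, 6 genes of major histocompatibility complex (MHC) class I and 5 of MHC class II. All mice were C57BL/6; 4 libraries were labelled wildtype and 5 carried the genotype Bmal1 -/-. The series concerns the circadian clock in chronic kidney disease, and both groups are given only as kidney, with no treatment, age, sex, hour of sampling or deleted exon stated. The labels do not say whether the deletion was limited to certain cells, nor whether libraries and animals correspond one to one, and the p-values therefore reflect only variation among the libraries, which may be technical.

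Interferons are secreted signals of infection or tissue damage. Type I interferon acts through the receptors Ifnar1 and Ifnar2 and the kinases Jak1 and Tyk2, and a transcription factor complex that includes Stat2 and Irf9 then binds the interferon-stimulated response element (ISRE) of its target genes. Interferon gamma acts through its own receptor and raises Irf1, MHC genes and, by way of Ciita, MHC class II. MHC class I, a heavy chain paired with β2-microglobulin, shows cytosolic peptides on nearly all cells, whereas MHC class II is carried mainly by dendritic cells, macrophages and B cells.

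Sequence of the promoters shows what the members share apart from their names. RefSeq promoter windows (build GRCm38.p6, 250 bases before to 50 after a gene's start) were matched for 27 of the 38 members by symbol. Both strands were searched for the ISRE core, TTTC followed by any 2 bases and TTTC again, which reads as GAAA, any 2 bases and GAAA from the other strand, and successive matches may overlap. It was found in 13 of the 27 (48.15%), against 3.99% of 27025 gene symbols with a window. Of 20 interferon-induced members with a window 12 held it, as did B2m among 5 class I members and neither of the 2 class II members. Windows of 30 bases around 1 match each are shown for 6 of these genes, read 5′ to 3′ on the gene's strand, with the match in capitals. They show the element in antiviral genes and in B2m, whose values are described closely. Ifi44, Rtp4 and Ifi27, also described closely, were not among the 13 with a match. Whether each of them had a window is not reported here.
Ifit1, chr19:34640775-34640804, + strand: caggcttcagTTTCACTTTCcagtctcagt
Ifit3, chr19:34583397-34583426, + strand: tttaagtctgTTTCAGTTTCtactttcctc
Isg15, chr4:156200871-156200900, - strand: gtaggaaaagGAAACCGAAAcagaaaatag
Rsad2, chr12:26456553-26456582, - strand: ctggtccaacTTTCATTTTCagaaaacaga
Bst2, chr8:71537577-71537606, - strand: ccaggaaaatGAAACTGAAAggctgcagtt
B2m, chr2:122147538-122147567, + strand: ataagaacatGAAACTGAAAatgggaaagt

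The MHC promoters carried another element. The Y-box core CTGATTGG (reverse complement CCAATCAG), part of the conserved MHC promoter module, was found in 5 of the 27 members, H2-K1, H2-D1, Tap1, H2-Aa and H2-Eb1, against 4.70% of all symbols. It was in 3 of 5 class I and in both class II windows, and in none of the 20 interferon-induced ones. The E-box CACGTG, the site that Bmal1 binds with Clock, was in none of the 27 windows, against 8.09% of all symbols. These are matches of letters within short windows and not tests of binding. The matches of the class I and class II chains are shown in the same way, without that of Tap1.
H2-K1, chr17:34000321-34000350, - strand: atcaccaagaaCCAATCAGtgtcgccgcgg
H2-D1, chr17:35263030-35263059, + strand: gattccaggagCCAATCAGcgtcgccgcgg
H2-Aa, chr17:34287856-34287885, - strand: aagagaattttCTGATTGGttctggcgagt
H2-Eb1, chr17:34305794-34305823, + strand: ctcctttgatgCTGATTGGctcccagcact

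Several members are neighbours in the genome. Of the MHC members, 8 lie within 1352 kb of chromosome 17 (33915899 to 35267499, GRCm38), the Ifit genes within 99.32 kb of chromosome 19 and the Gbp genes within 107.7 kb of chromosome 3. B2m is on chromosome 2 (122147686 to 122153083), Ifi44 on chromosome 3 (151730922 to 151749960) and Rtp4 on chromosome 16 (23520291 to 23614222).

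Values are the authors' log2(x + 1), where x is a read count adjusted by the authors. The 3′ library kit gives about a single tag per transcript, so levels of different genes can be set side by side without a length correction. Adjusted totals were 11765219 to 13486444 per library. Of the 38 members 35 reached an x of at least 10 in at least 4 libraries and were tested; Oas2, Mx1 and Mx2 did not. Arntl, the gene of Bmal1, was at a mean of 6.69 in wild type and 5.85 in knockout (limma adjusted p = 0.0112), but a 3′ tag outside the deleted part would still be read, so this is no check of the labels. Red cell transcripts took 0.621% to 1.55% of adjusted reads in wild type and 0.899% to 3.56% in knockout, and the ribosomal RNA precursor Rn45s 5.07% to 11.3% and 6.83% to 14.4%. In both, knockout 4 was the highest of the 9 libraries and wild type 2 the highest wild type.

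The comparison of genotypes asked whether loss of Bmal1 went with a different level of these genes. Of the 35 tested members 2 rose in knockout, the interferon-induced genes Ifi44 and Rtp4, and none fell (limma, Benjamini-Hochberg adjusted p under 0.05 over all 13481 tested genes). That is 5.71% of the members, against 14.4% of all tested genes called in either direction and 6.16% called higher (831 genes), and 8.2% were called lower (1106 genes). The members' share is thus at or below the background. At an unadjusted p under 0.05 there were 7 members, all higher, 20% of 35 against 27.5% of all genes. In no tested member did all knockouts lie above or all below the wild types, which was the case in 14.3% of all tested genes.

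Small positive differences were nevertheless the more frequent sign. Of the 35 members 27 had a knockout mean above the wild-type mean, and the median difference was 0.21 on the log2 scale, against 0.0002 and equal shares of either sign over all tested genes. The members share regulators and libraries and are not replicates, so this is a description. For the 33 members without a call, the 95% interval of the difference lay within a 2-fold change either way in 29 and within 1.5-fold in 14.

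**Figure D1:**
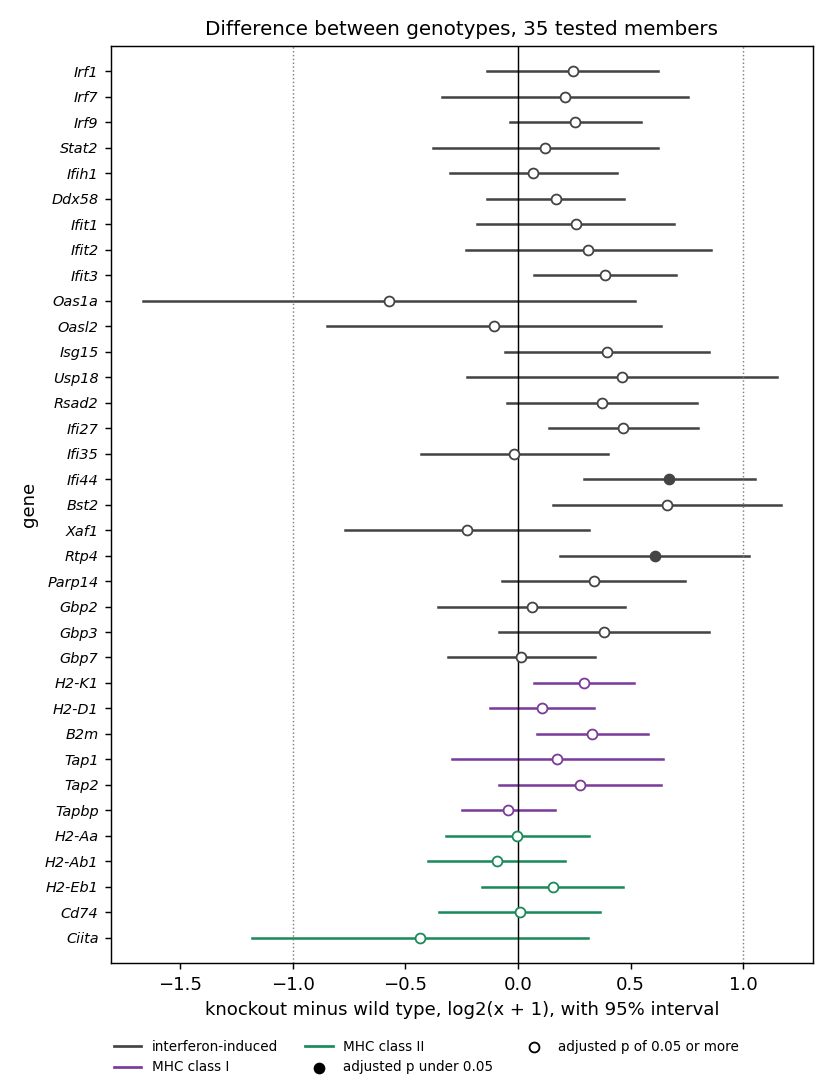
Difference between genotypes (knockout minus wild type, log2(x + 1)) for the 35 tested members, points with 95% intervals from limma; filled points passed an adjusted p of 0.05, dotted lines mark a 2-fold change. Only Ifi44 and Rtp4 are filled, and most other intervals cross 0.

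Ifi44, an interferon-induced cytoplasmic protein with antiviral activity, had the largest increase of the 35. The wild types read 8.24, 8.76, 9.04 and 9.10, against 9.21, 9.61, 9.06, 9.89 and 9.51 in the knockouts. Of the 5 knockouts 4 lay above every wild type, and knockout 3 lay just below wild type 4. The mean rose from 8.79 ± 0.40 (SD, n = 4) to 9.46 ± 0.33 (SD, n = 5), a log2 difference of 0.67 (SE 0.18, 95% interval 0.29 to 1.05, limma adjusted p = 0.0176), or 1.59-fold. The call was lost without wild type 1, the lowest library (0.49, adjusted p = 0.0681), and without knockout 4, the highest (0.56, adjusted p = 0.0538). With Rn45s as a covariate the difference was 0.54 (limma adjusted p = 0.0917), and with the red cell transcripts 0.51 (limma adjusted p = 0.117).

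Rtp4, a chaperone of cell-surface receptors that is induced by interferon, passed by a narrow margin. The wild types read 6.52, 7.004, 6.22 and 6.59, against 6.84, 7.53, 6.996, 7.43 and 7.14 in the knockouts. Wild type 2 overlapped the knockouts, while the other wild types lay below all 5. The difference was 0.61 (SE 0.20, 95% interval 0.19 to 1.03, limma adjusted p = 0.0498), or 1.52-fold. It passed on leaving out wild type 2 or knockout 1 and failed on leaving out any of the other 7 libraries (limma adjusted p 0.0609 to 0.154). It also failed with Rn45s (0.40, limma adjusted p = 0.224) and with red cell transcripts as covariate (0.38, limma adjusted p = 0.303). Exons of Rtp4 overlap Gm45338, annotated as a processed transcript, on the same strand, so its reads are uncertain in that respect.

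Bst2 and Ifi27 came closest among the antiviral effectors without a call. Bst2, or tetherin, which holds budding virus at the cell surface, read 5.61, 6.45, 5.88 and 6.38 in the wild types, against 6.33, 6.62, 6.86, 7.34 and 6.55 in the knockouts. All knockouts but 1 lay above the wild types, and the difference was 0.66 (95% interval 0.16 to 1.17, limma adjusted p = 0.0753). Ifi27, a small interferon-induced membrane protein, read 9.38, 9.02, 9.08 and 9.31 in the wild types, against 10.01, 9.87, 9.19, 9.36 and 9.90 in the knockouts. Knockouts 1, 2 and 5 were high and the other 2 lay among the wild types, with a difference of 0.47 (95% interval 0.14 to 0.80, limma adjusted p = 0.0553). With Rn45s as a covariate Ifi27 passed (0.66, limma adjusted p = 0.00747), and each scaling of the libraries other than the deposited one also let it pass (limma adjusted p 0.0187 to 0.0492). Over the 21 alternative settings Bst2 passed in 4 and Ifi27 in 8, with limma adjusted p up to 0.382 and 0.133.

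The other antiviral effectors did not pass. Rsad2, or viperin, which makes a chain-terminating nucleotide, was the most abundant interferon-induced member, at 9.40 to 10.3 in wild type and 9.83 to 10.9 in knockout. Its difference was 0.37 (95% interval -0.05 to 0.79, limma adjusted p = 0.243). The ADP-ribosyltransferase Parp14 was at 0.34 (95% interval -0.07 to 0.74), Ifi35 at -0.02 (-0.43 to 0.40) and Xaf1, a partner of the apoptosis inhibitor XIAP, at -0.23 (-0.77 to 0.32). In all 4 genes the genotypes overlapped.

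**Figure D2:**
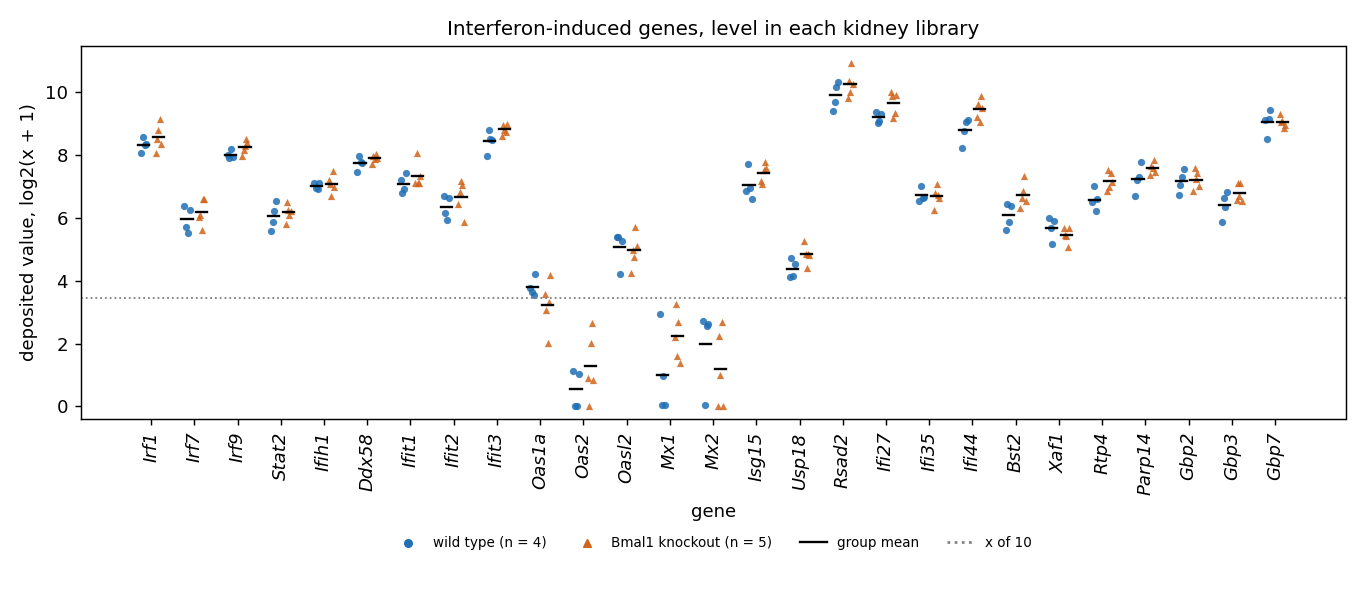
Deposited value, log2(x + 1), of the 27 interferon-induced genes in each library (circles, 4 wild type; triangles, 5 knockout; bars, group means; dotted line, x of 10). Ifi44 and Rtp4 show the upward shift that passed the test, while Oas2, Mx1 and Mx2 lie under the dotted line in every library.

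The sensors and transcription factors that start and carry the response did not pass the test. The RNA sensors Ddx58 (RIG-I) and Ifih1 (MDA5) had differences of 0.17 (95% interval -0.14 to 0.47) and 0.07 (-0.30 to 0.44). Among the factors, Irf1 had 0.24 (-0.14 to 0.62), Irf7, which amplifies interferon production, 0.21 (-0.34 to 0.76), Irf9 0.25 (-0.04 to 0.54) and Stat2 0.12 (-0.38 to 0.62). All 4 factors were nominally higher in knockout, and none passed (limma adjusted p 0.248 to 0.793). At an unadjusted p under 0.05 there was likewise no sensor or factor. Exons of Irf1 and Irf7 overlap protein-coding genes of the other strand, and those of Irf9 overlap Rnf31 on its own strand.

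The classical interferon-induced effectors did not pass either. The Ifit proteins, which bind viral RNA, had differences of 0.26 for Ifit1, 0.31 for Ifit2 and 0.39 for Ifit3, the last with a 95% interval of 0.07 to 0.70 (limma adjusted p = 0.0962). Ifit3 read 7.98, 8.79, 8.51 and 8.48 in the wild types, against 8.62, 8.97, 8.81, 8.75 and 8.99 in the knockouts, so that wild type 1 was the low library and wild type 2 lay among the knockouts. Without wild type 2 the difference of Ifit3 was 0.51 (limma adjusted p = 0.0247). Isg15, the ubiquitin-like modifier, was at 0.39 (95% interval -0.06 to 0.85, limma adjusted p = 0.252) and also passed without wild type 2 (0.62, limma adjusted p = 0.0350), its highest wild type. Over the 21 alternative settings Ifit3 passed in 4 and Isg15 in 1. Their differences were as low as 0.23 and 0.096, with limma adjusted p up to 0.347 and 0.849. Usp18, the protease that removes Isg15 and dampens the receptor, was at 0.46 (-0.23 to 1.15).

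The OAS and guanylate-binding genes did not pass. Oas1a, which makes the activator of RNase L, was near the filter, at 3.56 to 4.22 in wild type and 2.01 to 4.18 in knockout, and its interval was wide (-1.66 to 0.52). The related Oasl2 was at -0.11 (-0.85 to 0.63). Of the 300 bases at the 3′ ends of Oas1a transcripts, 21.1% of 50-base stretches are shared with Oas1g, so reads of the 2 genes may be split or counted together. The guanylate-binding proteins, GTPases that attack vacuoles of intracellular microbes, were at 0.06 for Gbp2, 0.38 for Gbp3 and 0.02 for Gbp7, with no call (limma adjusted p 0.286 to 0.962). Gbp7 was abundant, at 8.51 to 9.43 in all libraries.

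Oas2, Mx1 and Mx2 were close to the floor. Oas2 was at 0 to 1.12 in wild type and 0 to 2.66 in knockout, Mx1 at 0.041 to 2.95 and 1.37 to 3.25, and Mx2 at 0.042 to 2.72 and 0 to 2.69. The Mx proteins are antiviral GTPases, but C57BL/6 and most other inbred strains carry defective Mx1 alleles, and the annotation lists Mx2 as a polymorphic pseudogene.

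MHC class I genes showed small positive differences without a call. B2m, the light chain, was by far the most abundant member, reading 13.29, 13.16, 13.20 and 13.42 in the wild types, against 13.40, 13.71, 13.69, 13.82 and 13.36 in the knockouts. Knockouts 2, 3 and 4 lay above every wild type, and the difference was 0.33 (SE 0.12, 95% interval 0.08 to 0.58, limma adjusted p = 0.0702), or 1.26-fold. The heavy chain H2-K1 read 10.98, 11.003, 11.35 and 11.31 in the wild types, against 11.40, 11.32, 11.46, 11.56 and 11.53 in the knockouts. All knockouts except knockout 2 lay above the wild types (difference 0.29, SE 0.11, 95% interval 0.07 to 0.51, limma adjusted p = 0.0737). The other heavy chain, H2-D1, was at 11.55 to 11.78 and 11.53 to 12.08, with a difference of 0.11 (-0.12 to 0.34, limma adjusted p = 0.580).

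Whether B2m and H2-K1 were called depended on scaling. Both passed after quantile normalization (0.44 and 0.39, limma adjusted p = 0.0143 and 0.0212), after upper-quartile scaling (0.41 and 0.37, limma adjusted p = 0.0300 and 0.0228) and after scaling to the total without Rn45s (0.44 and 0.40, limma adjusted p = 0.0164 and 0.0205). The last setting moved the median of all genes by 0.105. It also turned the split over all genes to 1272 higher and 695 lower, upper-quartile scaling to 1123 and 811, and scaling to the total to 992 and 756. Quantile normalization gave 890 higher and 873 lower, with a median of 0.003 over all genes. B2m further passed without knockout 1 (limma adjusted p = 0.0443) or knockout 5 (limma adjusted p = 0.0431), and H2-K1 without wild type 3 (limma adjusted p = 0.0474). Over the 21 alternative settings B2m passed in 7 and H2-K1 in 4, with limma adjusted p up to 0.241 and 0.256. Their differences ranged from 0.24 to 0.44 and from 0.21 to 0.40. The sum of x over B2m, H2-K1 and H2-D1 was 14451 to 16855 in wild type and 16911 to 21824 in knockout. B2m made up most of it, with a mean of 9874 of 15474 in wild type. The sum was not tested, and the genotypes overlapped in each gene taken alone. Of the 50-base stretches at the 3′ ends, 9.54% of H2-K1 and 13.5% of H2-D1 occur in other genes, among them each other, and none of B2m.

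None of the genes that load peptide on class I passed the test. Tap1 and Tap2, which together form the peptide transporter, had differences of 0.17 (95% interval -0.29 to 0.64) and 0.27 (-0.08 to 0.63), and Tapbp (tapasin), which bridges the transporter and the heavy chain, -0.04 (-0.25 to 0.16). Tapbp had the narrowest interval of the 3 and was at 9.97 to 10.10 in wild type and 9.87 to 10.13 in knockout. Tap1 was the least abundant, at 6.03 to 6.43 and 5.96 to 6.96. In class I as a whole, 0 of 6 members passed by limma, with 2 at an unadjusted p under 0.05, and the median difference was 0.22. Exons of Tap1 overlap Psmb9, and those of Tapbp overlap Zbtb22.

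No MHC class II gene passed the test. H2-Aa, the α chain of I-A, read 11.32, 11.67, 10.99 and 11.26 in the wild types, against 11.05, 11.36, 11.31, 11.78 and 11.04 in the knockouts. Its β chain partner H2-Ab1 was at 10.46, 10.59, 10.03 and 10.56 and at 10.03, 10.26, 10.30, 10.78 and 10.20. The genotypes overlapped throughout, with differences of -0.003 for H2-Aa (95% interval -0.32 to 0.31, limma adjusted p = 0.992) and -0.09 for H2-Ab1 (-0.40 to 0.21).

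The genotypes also overlapped in the other class II genes. H2-Eb1, the β chain of I-E, was at 9.88 to 10.53 in wild type and 9.99 to 10.79 in knockout (difference 0.15, 95% interval -0.16 to 0.47). Cd74, the invariant chain, was at 9.40 to 10.002 and 9.41 to 10.34 (0.01, -0.35 to 0.37). Ciita, the transactivator of class II genes, was the least abundant, at 4.37 to 4.77 and 3.67 to 4.47, with 3 knockouts below every wild type and an uncertain difference of -0.43 (-1.18 to 0.31, limma adjusted p = 0.469). Of the 5 members none passed by limma, none had an unadjusted p under 0.05, and the median difference was -0.003. Exons of Ciita overlap Dexi on the other strand.

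**Figure D3:**
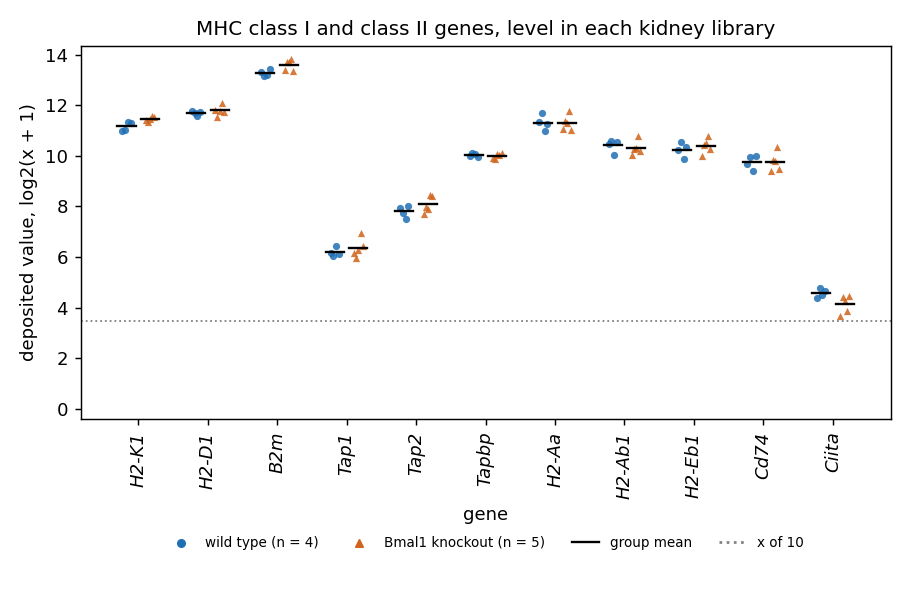
Deposited value, log2(x + 1), of 6 MHC class I and 5 class II genes in each library (circles, 4 wild type; triangles, 5 knockout; bars, group means; dotted line, x of 10). B2m lies highest at 13.2 to 13.8, and the genotypes overlap in every gene.

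Within a library the class II chains kept close to one another while the libraries moved. H2-Aa exceeded H2-Ab1 by 0.69 to 1.10 on the log2 scale in all 9 libraries, H2-Eb1 by 0.75 to 1.15 and Cd74 by 1.25 to 1.70. Knockout 4 was the highest and wild type 3 the lowest library for H2-Aa, H2-Ab1, H2-Eb1 and Cd74 alike. Ciita followed them only in part. It was at 3.86 in knockout 4, below every wild type, and at 4.50 in wild type 3. Its highest library, wild type 2 (4.77), was also high for H2-Aa (11.67). Its lowest, knockout 1 (3.67), was also low for H2-Ab1 (10.03). B2m exceeded H2-K1 by 1.84 to 2.39 and H2-D1 by 1.48 to 2.18.

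A single knockout library stood out across the members. Knockout 4 held the highest value in 21 of the 38 members, among them 12 of 27 interferon-induced, 5 of 6 class I and 4 of 5 class II genes. Wild type 1 was the lowest library in 11 members, 10 of them interferon-induced. Averaged over the 24 tested interferon-induced genes, the deviation from the mean of all libraries was 0.30 in knockout 4 and -0.27 in wild type 1. Without wild type 1 no interferon-induced gene passed, and without wild type 3, wild type 4, knockout 2, knockout 4 or knockout 5 only 1 did in each case. Without knockout 4 that gene was neither Ifi44 nor Rtp4. Calls over all tested genes also fell in these settings, from 1937 to between 1426 and 1634. Without wild type 2, 5 passed, Ifi44, Rtp4, Ifit3, Isg15 and Bst2, while calls over all tested genes rose to 2277. With both wild type 2 and knockout 4 left out, 2 passed, Rtp4 (0.69, limma adjusted p = 0.0377) and Ifit3 (0.52, limma adjusted p = 0.0364), while Ifi44 did not (0.56, limma adjusted p = 0.0679).

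**Figure D4:**
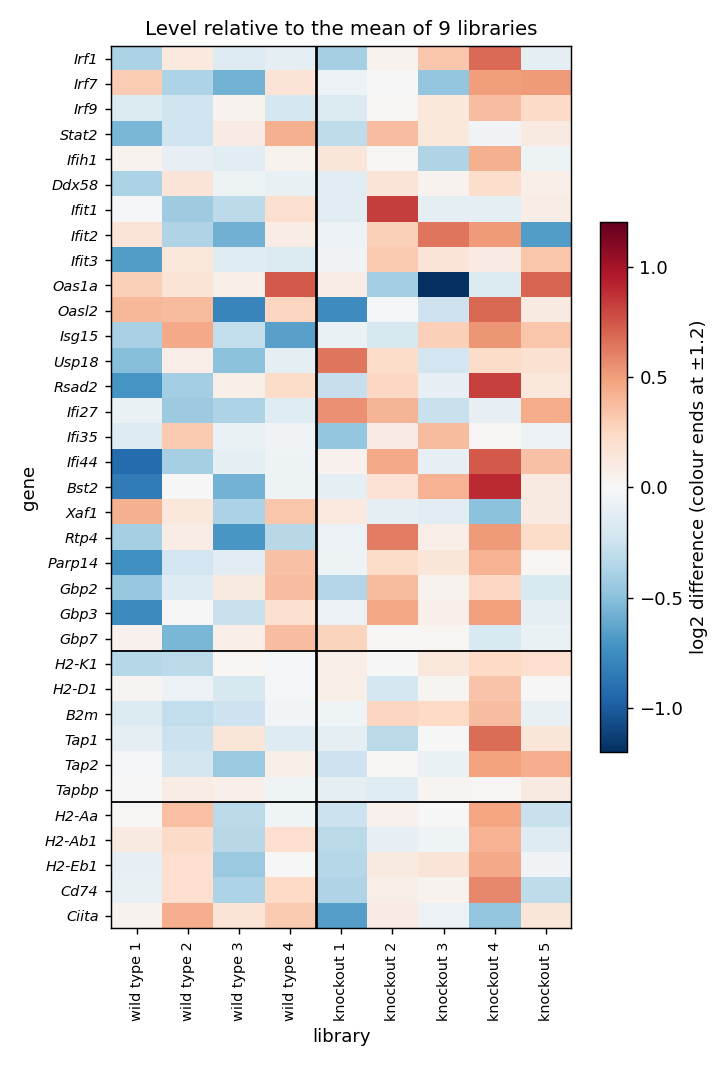
Difference of each library from the mean of 9 libraries (log2, colour from blue for lower to red for higher, ending at ±1.2) for the 35 tested members; the vertical line parts wild type from knockout and the horizontal lines part interferon-induced, class I and class II genes. Knockout 4 is red across most rows of all 3 classes, and the class II rows other than Ciita change together from library to library.

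Markers of other cells were measured in the same libraries. In tissue RNA, fewer cells of a type and less RNA per cell cannot be told apart. Of 11 macrophage markers 1 passed (9.09%, against 14.4% of all tested genes). It was Csf1r, the receptor for macrophage growth factor, which fell by 0.48 (limma adjusted p = 0.00436). C1qa was at -0.10 without a call. The summed x of the 11 was 1630 to 1940 in wild type and 1377 to 1832 in knockout. Of 8 dendritic cell markers 5 were tested and none passed, nor had any an unadjusted p under 0.05; their sum was 87.1 to 117 and 80.9 to 167. Sums were 21.5 to 37.9 and 7.5 to 71.3 for B cells, with Pax5 at 0 in all libraries, and 41.0 to 74.1 and 69.2 to 108 for T and NK cells. Only 1 B cell marker and 3 T and NK cell markers reached the filter, and none passed.

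Calls were found among the endothelial markers but not among the 2 neutrophil markers that reached the filter. Of 8 endothelial markers 2 rose, Plvap by 1.03 (limma adjusted p = 0.000236) and Pecam1 by 0.83 (limma adjusted p = 0.000941). That is 25%, against 14.4% of all tested genes called in either direction and 6.16% called higher. The other 6 did not pass and ranged from Kdr at -0.11 (limma adjusted p = 0.752) to Tek at 0.46 (limma adjusted p = 0.183), and the sum of all 8 was 3340 to 4761 in wild type and 4155 to 7640 in knockout. The neutrophil genes S100a8 and S100a9 were at 1.12 and 1.06 without a call (limma adjusted p 0.199 and 0.237), with sums of 43.9 to 395 and 74.6 to 551 and Mpo at 0 in all libraries. Below the filter and not tested, Retnlg was at 0 to 2.41 in wild type and 2.54 to 5.68 in knockout. The T cell marker Cd4, also untested, was at 0.076 to 2.78 and 2.94 to 4.25. In the other immune markers below the filter the genotypes overlapped. Knockout 4 had the highest dendritic, T and NK, endothelial, neutrophil and red cell sum of the 9 libraries. Markers of the proximal tubule, the main segment of the kidney cortex, summed to 101527 to 130513 and 73833 to 89521. Of the 8, 3 were lower in knockout, 37.5% against 8.2% of all tested genes called lower. At an unadjusted p under 0.05, 7 were lower, where 27.5% of all tested genes passed in either direction. Slc22a8, an organic anion transporter, fell by 1.32 (limma adjusted p = 1.09e-06), and Slc34a1, the phosphate transporter, was at 14.96 to 15.22 in wild type and 14.58 to 15.03 in knockout (difference -0.28, limma adjusted p = 0.173). The part of these cell markers in the values of Ifi44, Rtp4, B2m and H2-K1 was not tested.

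Other genes of the pathway, listed by function, moved in both directions. Of 106 tested 3 rose and 5 fell, 7.55% against the background of 14.4%, with a median difference of 0.02. Of 8 interferon genes 7, among them Ifna4, Ifnb1 and Ifnl3, were listed at 0 in all libraries, and Ifng was at 0 to 3.85 in wild type and 0 to 2.15 in knockout, below the filter. Of 10 genes of the receptors and their signalling none passed by limma, with 1 at an unadjusted p under 0.05; Ifnar1 was at 0.05 and Ifnar2 at 0.31. Among 14 nucleic acid sensors and adaptors none passed by limma, with 2 at an unadjusted p under 0.05. One of these, Mb21d1 (the DNA sensor cGAS, named after its values were seen), was at 3.55 to 3.87 in wild type and 4.12 to 5.09 in knockout, a difference of 0.94 (limma adjusted p = 0.0990).

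Of 47 further interferon-induced genes 3 rose and 3 fell, 12.8% against 14.4% of all tested genes. Cmpk2, a mitochondrial nucleotide kinase encoded next to Rsad2 on chromosome 12 (26469204 to 26479837), rose by 0.65 (SE 0.17, limma adjusted p = 0.0132), from 6.83 to 7.36 in wild type to 7.51 to 8.15 in knockout. Psme1, a subunit of the proteasome activator, rose by 0.42 (limma adjusted p = 0.0152) and Ifitm3, which blocks fusion of viruses with endosomes, by 0.44 (limma adjusted p = 0.0382). Trim25, the ubiquitin ligase that acts on RIG-I, fell by 0.57 (limma adjusted p = 0.00196). Ly6e, a membrane-anchored antiviral protein, fell by 0.42 (limma adjusted p = 0.00524), and Gbp6 by 0.70 (limma adjusted p = 0.0415). The related Gbp10 was at -1.12 without a call (limma adjusted p = 0.0989).

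The other lists held few calls. Calreticulin, Calr, a chaperone of the class I heavy chain, fell by 0.37 (limma adjusted p = 0.0173), with knockouts at 12.23 to 12.54 below wild types at 12.73 to 12.94. It was the 1 call among 12 other class I genes, 8.33% against 14.4% of all tested genes. Of 12 further class II genes none passed by limma, with 2 at an unadjusted p under 0.05. Counts over the related genes depended on single libraries: 6 rose without wild type 2 and 1 without wild type 3, and 2 fell without wild type 3. Leaving out wild type 1, wild type 4 or any 1 knockout left 3 that fell. Over all tested genes, the 1937 calls became 2277 without wild type 2 and 1492 without wild type 3.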

How the data were processed

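Kidney RNA of 4 wild-type and 5 Bmal1 knockout libraries was prepared with Trizol and a Lexogen 3′ kit, per the labels' protocols. Each deposited table gives log2(x + 1) per symbol, x being a count adjusted by the authors. Bowtie2, bedtools and mm10 are named in the submitters' processing notes, without versions; the sources used here do not give normalization, annotation or strand setting. Low values of x fall in bands near whole numbers, but exact counts were not recovered, so counting error is not known.

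Symbols with x of at least 10 in at least 4 libraries were tested (13481, each of the 79 rows with a repeated symbol kept apart). Tests on the deposited log2 values used limma 3.58.1 under R 4.3.3 (variance trend, genotype alone, two-sided, Benjamini-Hochberg over all tested genes, threshold 0.05); intervals are 95%. A difference of log2(x + 1) understates the change of low genes. The fit was tested on simulated data. Members, lists and tests were chosen with earlier results of these data known. All members were named. The plan was to name also up to 4 called genes of each related list and the 2 most abundant markers of a list. It was not kept: Gbp10, Mb21d1, Slc22a8, Pecam1 and Tek, among others, were named outside it. The named genes therefore do not stand for their lists. Positions and 3′ ends came from GENCODE, promoters from RefSeq, both GRCm38. The markers Ighm and Ly6g were not used here. Values of some related genes are not reported here, although the genes are in the counts. The alternatives were 9 single libraries left out, 1 pair left out, another pseudocount, 2 filters, 4 scalings, 2 covariates, a robust prior and a replicate block; an unadjusted exact permutation test of single members was added after seeing the data.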

Additional observations from a re-analysis of the deposited data

Results flagged for a closer look

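Within each genotype, a library was singled out where its gap to the next value took most of the range of the group (Dixon's test at 95%). Of 76 groups of member values, 3 were singled out, and chance gives about 1 in 20. Ifit1 was at 8.06 in knockout 2, with the other knockouts at 7.10 to 7.32. Oasl2 was at 4.22 in wild type 3, with the other wild types at 5.27 to 5.41. Mx2 was at 0.042 in wild type 2, against 2.56 to 2.72, a range of few reads.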

How the results depend on the processing

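The counts of interferon-induced genes and of class I genes called higher depended on the settings, and class II had no call under any of 21 alternatives. Calls over all tested genes moved too, from 1937 to between 1426 and 2277 on leaving out single libraries. The 2 interferon-induced genes called higher became 0 to 5 on leaving out single libraries, and 1 with a pseudocount of 5 or without a filter. The count was also 1 with the Rn45s covariate (Ifi27) or with the red cell covariate, in each case neither Ifi44 nor Rtp4. It was 4 when scaled to the total or to the upper quartile, and 5 when scaled to the total less Rn45s. The class I count of 0 became 0 to 1 on leaving out single libraries, 1 when scaled to the total, and 2 after quantile normalization or when scaled to the upper quartile or the total less Rn45s. No member was called lower under any alternative. Related genes called higher (3) were 1 to 6 on leaving out single libraries, 5 without both wild type 2 and knockout 4 or when scaled to the total, 6 when scaled to the total less Rn45s, and 1 with either covariate. Related genes called lower (5) were 2 to 7 on leaving out single libraries, 3 without a filter, after quantile normalization or when scaled to the upper quartile, and 2 when scaled to the total, with Rn45s in it or not, or with the red cell covariate. The cause was not tested.

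Same-numbered libraries share only a number: their deviations correlated at 0.151, 0.000909, -0.00701 and 0.0407, and 2 of 4 wild types matched their own number best. With the replicate block 1 class I gene, B2m, passed (0.39, limma adjusted p = 0.0280), 6 related genes were higher and 4 lower, and 1738 of all genes were called. With the red cell covariate 1256 of all tested genes were called, against 1937 without it.

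Over 730 pairs of a member and an alternative, 17 lost a call (5 of Ifi44, 12 of Rtp4), 28 gained one, and the others kept their side of the threshold. Of these, 2, both of Tapbp, moved by more than 1 SD between libraries. The difference of members without a call changed sign in 45 pairs, and no called value did. By exact permutation, 6 tested members had an unadjusted p under 0.05, and the smallest p that test can give is 0.00794. The permutation was not run on other genes, so this count has no share over all genes beside it. By limma 20% of the members had an unadjusted p under 0.05, against 27.5% of all tested genes. Since exact counts were not recovered, no limit from counting can be given for Oas2, Mx1 and Mx2.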
